A study of Mus musculus with 84 samples.

Results

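The 9 genes described here act in glucose production by the liver and in the response to insulin: Pck1, G6pc, Fbp1, Pklr, Irs1, Irs2, Insr, Foxo1 and Igfbp1. They were chosen by symbol, and all 9 were found among the 49671 gene rows of an RNA sequencing table covering 84 libraries, 7 tissues from each of 12 mice. The groups were ob/ob mice on a high-fat diet (HFD), ob/ob mice on a normal diet (ND), wild-type (WT) mice on HFD and WT mice on ND, with 3 mice each, dissected after 20 weeks, which the series' description gives without saying whether it counts age or time on diet. ob/ob mice carry a mutation that leaves every tissue without working leptin from birth, so the genotype effect includes lifelong obesity and its consequences. Sex, strain background and whether the mice were fasted when the tissues were taken are not given in the labels. Fasting glucose was recorded once per mouse and is given beside the liver values.

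In fasting, the liver makes new glucose, and insulin after a meal shuts this down. Pck1 (cytosolic phosphoenolpyruvate carboxykinase) and Fbp1 (fructose-1,6-bisphosphatase) catalyse steps of gluconeogenesis that glycolysis does not share, and G6pc (glucose-6-phosphatase catalytic subunit) releases free glucose. Pklr encodes the liver form of pyruvate kinase, the last step of glycolysis, which runs against gluconeogenesis and is transcribed more when carbohydrate is plentiful. Insr is the insulin receptor, Irs1 and Irs2 are the docking proteins that carry its signal to phosphatidylinositol 3-kinase and Akt, and Foxo1 is the forkhead transcription factor that Akt phosphorylates and removes from the nucleus. Igfbp1, a secreted protein that binds insulin-like growth factors, is a classical transcript that insulin represses and Foxo1 activates. In fat, Pck1 serves the making of glycerol for triglyceride storage.

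On GRCm38, by the GENCODE annotation, the genes lie as follows: Pck1 (ENSMUSG00000027513) at chr2:173153048-173159273, plus strand, G6pc (ENSMUSG00000078650) at chr11:101367561-101377903, plus strand, Fbp1 (ENSMUSG00000069805) at chr13:62864753-62888282, minus strand, Pklr (ENSMUSG00000041237) at chr3:89136142-89146784, plus strand, Irs1 (ENSMUSG00000055980) at chr1:82233101-82291416, minus strand, Irs2 (ENSMUSG00000038894) at chr8:10984681-11008458, minus strand, Insr (ENSMUSG00000005534) at chr8:3122061-3279617, minus strand, Foxo1 (ENSMUSG00000044167) at chr3:52268336-52353221, plus strand and Igfbp1 (ENSMUSG00000020429) at chr11:7197782-7202546, plus strand. Reads were counted over all exons of a gene, so transcripts from different starts are summed, and the RefSeq starts used below are not in every case the GENCODE ones.

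The promoters of Igfbp1, G6pc, Pck1 and Irs2 are shown because these 4 genes were the members lower in ob/ob than in WT livers on ND, and because their short upstream regions have been studied as targets of Foxo1 or cyclic AMP signalling. Each sequence is from RefSeq on GRCm38.p6, runs 5′ to 3′ along the gene's strand from 250 bases before to 50 bases after the annotated start, and has in capitals every match, on either strand, to 5 sets of letters. These are TGTTTAC of forkhead factors, its variants TGTTTTG and also TATTTTG of insulin response elements, the half-site TGACG of cyclic AMP response elements, and the E-box CACGTG. The windows are chr11:7197537-7197836, plus strand for Igfbp1, chr11:101367466-101367765, plus strand for G6pc, chr2:173152823-173153122, plus strand for Pck1 and chr8:11008880-11009179, minus strand for Irs2.
Igfbp1: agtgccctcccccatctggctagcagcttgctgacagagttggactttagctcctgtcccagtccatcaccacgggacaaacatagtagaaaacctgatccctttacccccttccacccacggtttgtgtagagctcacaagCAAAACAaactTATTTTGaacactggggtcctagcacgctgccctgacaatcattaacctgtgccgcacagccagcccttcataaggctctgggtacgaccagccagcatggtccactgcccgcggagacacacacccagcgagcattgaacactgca
G6pc: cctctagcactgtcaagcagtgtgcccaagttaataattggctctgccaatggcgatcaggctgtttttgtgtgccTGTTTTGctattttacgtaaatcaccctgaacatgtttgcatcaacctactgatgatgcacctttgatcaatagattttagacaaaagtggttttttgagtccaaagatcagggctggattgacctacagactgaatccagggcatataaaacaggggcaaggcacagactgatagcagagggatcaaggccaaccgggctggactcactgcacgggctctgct
Pck1: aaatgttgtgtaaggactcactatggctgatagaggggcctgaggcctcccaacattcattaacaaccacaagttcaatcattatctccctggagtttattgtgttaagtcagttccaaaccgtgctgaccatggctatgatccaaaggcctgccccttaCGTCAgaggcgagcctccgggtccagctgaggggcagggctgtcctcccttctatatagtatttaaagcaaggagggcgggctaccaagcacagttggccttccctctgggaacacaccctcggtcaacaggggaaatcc
Irs2: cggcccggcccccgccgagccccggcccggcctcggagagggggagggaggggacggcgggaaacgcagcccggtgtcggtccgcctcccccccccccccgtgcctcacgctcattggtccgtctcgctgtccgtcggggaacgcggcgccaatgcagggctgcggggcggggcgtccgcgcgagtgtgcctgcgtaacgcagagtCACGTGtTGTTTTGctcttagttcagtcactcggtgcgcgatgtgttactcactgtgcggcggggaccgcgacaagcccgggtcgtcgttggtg
Igfbp1 held TGTTTTG on the opposite strand at position -108 from the start and TATTTTG on its own strand at position -97, which together form the paired element known as its insulin response sequence. G6pc held TGTTTTG at position -174 and Pck1 held TGACG on the opposite strand at position -90, within the letters known as its cyclic AMP response element. Irs2 held CACGTG at position -44 and, next to it, TGTTTTG at position -37. Of 32851 promoters of this length in the table, 6.28% held TGTTTTG, 4.36% TATTTTG, 3.65% TGTTTAC, 20.8% TGACG and 7.15% CACGTG, so single matches to these letters are common. TGTTTAC had no match in the windows searched. Promoters were matched for 8 of the 9 symbols, with Insr the exception and 2 starts for Pklr, and none of the windows of Fbp1, Pklr and Foxo1 held any of the 5 sets of letters. The window of Irs1 held TGTTTTG at positions -111 and -32, TGACG and CACGTG.

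Sequencing depth, as the sum of gene counts, was 10499528 to 17040790 over the 84 libraries, with 10860694 to 14004875 in liver, 12441470 to 14079794 in epididymal fat and 13750025 to 17040790 in skeletal muscle. Levels are in CPM, counts scaled to the TMM-adjusted size of each library, and the values of a group are listed for mouse 1, 2 and 3. Fold changes are on the log2 scale. The standard error beside them was derived from the test, as the absolute log2 fold change over the square root of the F statistic. Genes rose, fell or differed where edgeR's quasi-likelihood test gave an adjusted p under 0.05, over all genes of a tissue. The mice are separate animals, so p-values measure the spread between animals. Several libraries held transcripts of other tissues. In epididymal fat, mouse 2 of WT ND had 1394 CPM of Alb, the albumin transcript of hepatocytes, against 4.54 to 211 CPM in the other 11 fat libraries. In skeletal muscle, the summed level of 8 myofibre transcripts ran from 4719.7 CPM in mouse 2 of ob/ob HFD to 220716 CPM in mouse 1 of WT ND, and Adipoq of adipocytes from 35.2 to 2124 CPM. Values that these libraries touch are given below with the marker levels.

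In liver on ND, ob/ob mice had less Pck1, G6pc, Igfbp1 and Irs2 transcript than WT mice, and more Fbp1 and Pklr. Thus 6 of the 9 genes differed, 4 lower and 2 higher, where 36.4% of the 13246 genes tested did. Pck1 stood at 2213, 1461 and 1675 CPM in ob/ob HFD livers, 1730.1, 1148 and 2142 CPM in ob/ob ND livers, 1859, 2372 and 1665 CPM in WT HFD livers and 4425, 3901 and 3496 CPM in WT ND livers. Every WT ND liver lay above every liver of the other 3 groups, which overlapped one another. On ND the ob/ob level was 0.425 of the WT level (-1.24 ± 0.22, adjusted p = 7.10e-04; log2 fold change by edgeR's quasi-likelihood test, as for all values of this form below).

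G6pc, the last enzyme on the way to free glucose, had 99.8, 248 and 132 CPM in ob/ob HFD, 168, 284 and 186 CPM in ob/ob ND, 258, 297 and 338 CPM in WT HFD and 740.3, 748 and 1278 CPM in WT ND livers. Again only the WT ND livers stood apart, with the lowest of them more than 2-fold above the highest of the other 9. On ND the ob/ob level was 0.230 of the WT level (-2.12 ± 0.32, adjusted p = 2.18e-04). Igfbp1 had the largest log2 fold change of the 9 genes on ND. It stood at 24.2, 88.4 and 56.7 CPM in ob/ob HFD, 13.5, 15.9 and 32.1 CPM in ob/ob ND, 34.1, 61.96 and 59.1 CPM in WT HFD and 219.7, 280.4 and 195 CPM in WT ND livers. The ob/ob ND livers had the lowest mean, with 1 of them inside the range of ob/ob HFD livers, and on ND the ob/ob level was 0.0885 of the WT ND level (-3.50 ± 0.43, adjusted p = 4.64e-05).

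Fbp1, which stands between Pck1 and G6pc in the same pathway, moved the other way. It had 1132, 1164 and 1312 CPM in ob/ob HFD, 1655, 1616 and 1591 CPM in ob/ob ND, 1122, 1174 and 968 CPM in WT HFD and 1172, 996 and 1135 CPM in WT ND livers, so the 3 ob/ob ND livers were the highest and lay close together. On ND Fbp1 was 1.47-fold higher in ob/ob mice (0.56 ± 0.10, adjusted p = 0.00106). Pklr, the glycolytic enzyme, had 224, 257 and 347 CPM in ob/ob HFD, 466, 570.1 and 455 CPM in ob/ob ND, 196, 253 and 158 CPM in WT HFD and 208, 144 and 167 CPM in WT ND livers. The ob/ob ND livers were again above all others, 2.88-fold higher than WT ND livers (1.52 ± 0.20, adjusted p = 7.17e-05).

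Among the genes of insulin reception, only Irs2 passed the test on ND. It had 12.8, 11.5 and 14.9 CPM in ob/ob HFD, 10.9, 10.7 and 10.3 CPM in ob/ob ND, 10.04, 10.3 and 17.9 CPM in WT HFD and 22.98, 15.4 and 40.3 CPM in WT ND livers. The ob/ob ND level was 0.407 of the WT ND level (-1.30 ± 0.29, adjusted p = 0.00377), with the WT ND livers spread over more than 2-fold. Irs1 ran from 8.58 to 16.3 CPM over all 12 livers, Insr from 109 to 151 CPM and Foxo1 from 30.8 to 61.7 CPM, and the ob/ob and WT groups overlapped on ND for all 3. Insr came closest to the threshold, with 118, 126 and 109 CPM in ob/ob ND and 149.6, 125 and 151 CPM in WT ND livers (-0.27 ± 0.10, adjusted p = 0.0510). It passed with DESeq2 (-0.28, adjusted p = 0.0343), with DESeq2 size factors in edgeR, in a fit of the 2 ND groups alone, and without WT HFD mouse 2 (-0.27), WT HFD mouse 3 (-0.27) or WT ND mouse 2 (-0.35). The summed level of 8 hepatocyte transcripts ran from 102394 to 110563 CPM in ob/ob ND and from 120157 to 126778 CPM in WT ND livers, and that of 7 macrophage transcripts from 238 to 258 CPM in ob/ob ND and from 77.4 to 291 CPM in WT ND livers. In this comparison 4 of 8 hepatocyte transcripts were lower and 1 higher, and 4 of 7 macrophage transcripts were higher. In such bulk samples fewer cells of a type and less RNA per cell cannot be told apart, and the part of these shifts in the results was not tested.

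**Figure D1:**
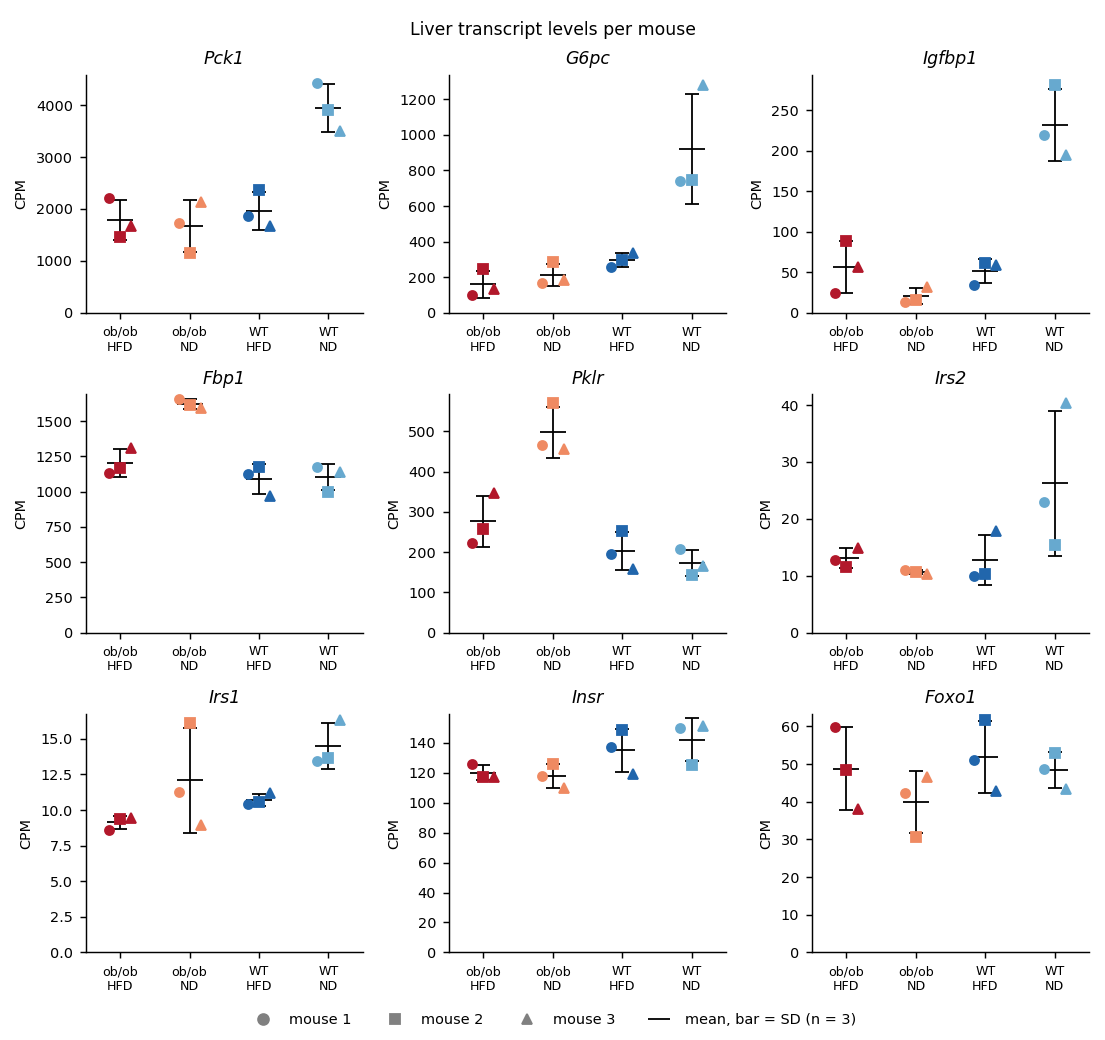
Liver CPM of the 9 genes (y axis, from 0) by group (x axis), with 1 point per mouse, the mean and the SD over 3 mice. Pck1, G6pc and Igfbp1 were highest in the 3 WT ND livers, and Fbp1 and Pklr in the 3 ob/ob ND livers.

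On HFD none of the 9 genes differed between ob/ob and WT livers, where 18.5% of all genes tested did. At an unadjusted p under 0.05 there were 2, G6pc and Pklr, and DESeq2 called 0. G6pc was lower in each of the 3 ob/ob HFD livers than in any WT HFD liver (-0.90 ± 0.31, adjusted p = 0.0609), and it passed the threshold with the mouse number as a block (-0.96, adjusted p = 0.0261), without the filter on low counts, and without ob/ob HFD mouse 2 (-1.36) or WT ND mouse 3 (-0.90). Pklr overlapped between the groups (0.45 ± 0.19, adjusted p = 0.128) and passed without the filter and without WT HFD mouse 2 (0.64). In liver the fit without the filter gave far smaller adjusted p at nearly the same fold changes (-0.91, adjusted p = 1.66e-11 for G6pc on HFD). Its liver calls, here and below, therefore do not measure the spread between 3 mice. For Pck1 the 2 means on HFD were 1783 ± 388 CPM in ob/ob and 1965 ± 365 CPM in WT livers (SD, n = 3 each), and for Igfbp1 56.4 ± 32.1 CPM in ob/ob and 51.7 ± 15.3 CPM in WT livers, differences within the spread between mice.

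HFD lowered 4 of the 9 transcripts in WT livers and raised none, where 21.8% of all genes tested changed. These were the same 4 genes that were lower in ob/ob than in WT mice on ND, and both comparisons share the WT ND livers. G6pc fell to 0.323 of its ND level (-1.63 ± 0.31, adjusted p = 0.00310), Igfbp1 to 0.223 (-2.17 ± 0.40, adjusted p = 0.00257) and Pck1 to 0.499 (-1.004 ± 0.22, adjusted p = 0.00601). Irs2 fell to 0.482 (-1.05 ± 0.29, adjusted p = 0.0212), with overlapping groups. The Irs2 call was lost in a fit of the 2 WT groups alone (-1.08, adjusted p = 0.0506) and without WT HFD mouse 1 (-0.93), WT HFD mouse 2 (-0.92) or WT ND mouse 3 (-0.61). Irs1 missed the threshold with no overlap of the diets (-0.43 ± 0.18, adjusted p = 0.0922), and passed in a fit of the 2 WT groups alone, without the filter, and without ob/ob ND mouse 2 (-0.43) or ob/ob ND mouse 3 (-0.43). The hepatocyte sum was 90797 to 100602 CPM in WT HFD and 120157 to 126778 CPM in WT ND livers, with 5 of 8 of its transcripts lower on HFD, and its part was not tested. Fbp1 and Pklr overlapped between the diets in WT livers: the HFD and ND means were 1088 ± 107 and 1101 ± 92.6 CPM for Fbp1, and 202 ± 47.8 and 173 ± 32.7 CPM for Pklr.

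In ob/ob livers none of the 9 genes changed with diet, where 0.913% of all genes tested did. At an unadjusted p under 0.05 there were 4, and DESeq2 called 2, Fbp1 and Pklr. Both were lower in every ob/ob HFD liver than in any ob/ob ND liver (Pklr -0.85 ± 0.20, adjusted p = 0.0677; Fbp1 -0.43 ± 0.10, adjusted p = 0.0813). Pklr passed without ob/ob HFD mouse 3 (-1.05), WT HFD mouse 2 (-0.85) or WT HFD mouse 3 (-0.85), and Fbp1 without WT HFD mouse 3 (-0.43). Igfbp1 overlapped between the diets in ob/ob livers (1.46 ± 0.41, adjusted p = 0.128) and passed without ob/ob HFD mouse 1 (1.82). All 3 passed when genes of low counts were kept in the fit, with the limit given above for that fit.

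The test of whether the diet effect differed between the genotypes was passed by 2 of the 9 genes, where 6.17% of all genes tested passed it. For Igfbp1 the diet effect in ob/ob minus that in WT livers was 3.63 ± 0.57, adjusted p = 0.00301. The ob/ob mean was higher on HFD (56.4 ± 32.1 CPM on HFD, 20.5 ± 10.1 CPM on ND) and the WT mean lower on HFD (51.7 ± 15.3 CPM on HFD, 232 ± 43.9 CPM on ND). For Pklr the difference was -1.08 ± 0.28, adjusted p = 0.0360. The Pklr call did not hold with the mouse number as a block (-1.06, adjusted p = 0.0621) or without any 1 of ob/ob HFD mouse 1 (-0.94), ob/ob HFD mouse 2 (-1.03), ob/ob ND mouse 1 (-1.12), ob/ob ND mouse 2 (-0.97), ob/ob ND mouse 3 (-1.14), WT HFD mouse 1 (-1.07), WT HFD mouse 2 (-0.88), WT ND mouse 2 (-0.96) or WT ND mouse 3 (-1.05). Pck1 stood at the threshold (1.10 ± 0.30, adjusted p = 0.0501) and passed with DESeq2 (1.11, adjusted p = 0.00452), with its size factors, without the filter, and without ob/ob HFD mouse 2 (1.22), ob/ob ND mouse 3 (1.31) or WT HFD mouse 2 (1.25). Irs2 (1.35 ± 0.42, adjusted p = 0.0742) passed with DESeq2 (1.37, adjusted p = 0.0186), without the filter, with the block (1.29, adjusted p = 0.0332), and without WT HFD mouse 3 (1.66) or WT ND mouse 2 (1.62). G6pc (1.22 ± 0.44, adjusted p = 0.118) passed only without the filter, where the difference was 1.20, adjusted p = 4.97e-10. Such a small value at nearly the same difference does not measure the spread between 3 mice. Fbp1 had -0.41 ± 0.15, adjusted p = 0.117, and passed under none of the alternatives.

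**Figure D2:**
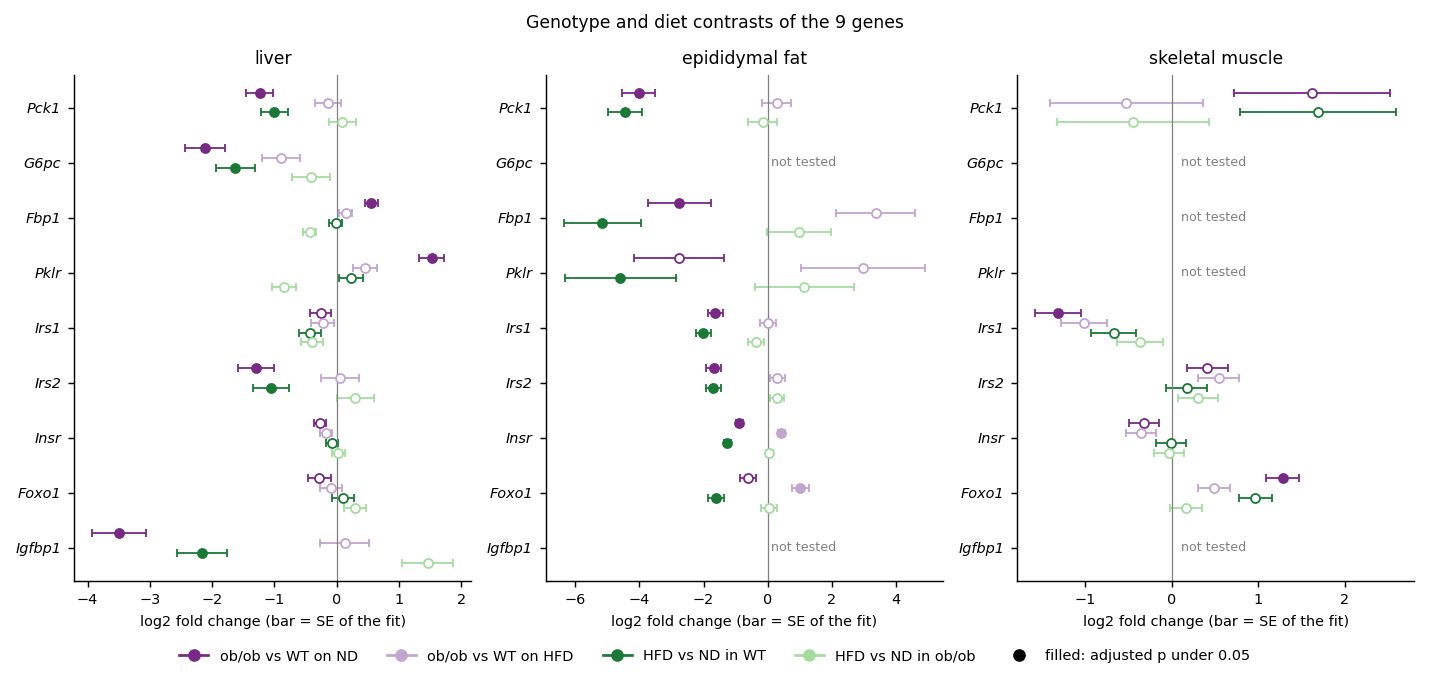
Log2 fold change of each gene (x axis, bar = SE derived from the F statistic) in liver, epididymal fat and skeletal muscle. The 4 contrasts of genotype and diet are shown, with filled points past an adjusted p of 0.05. In liver all filled points lie in the 2 contrasts against WT ND mice, and in fat all but those of Insr and Foxo1 on HFD.

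The liver genes around these 9 were read from lists chosen by function. The other gluconeogenic enzymes had 6 of 11 tested members higher and 2 lower, together 72.7%, in ob/ob mice on ND, with a median log2 fold change of 0.46. Over all genes tested, 36.4% differed on ND and the median was 0.02. Gpt2, mitochondrial alanine aminotransferase, rose (1.495 ± 0.08, adjusted p = 2.50e-07), as did Got1, cytosolic aspartate aminotransferase (0.98 ± 0.20, adjusted p = 0.00177), while Tat, the tyrosine aminotransferase that glucocorticoids induce, fell (-1.81 ± 0.27, adjusted p = 2.22e-04). The 3 aminotransferases thus moved in both directions, beside lower Pck1 and G6pc. The regulators of gluconeogenesis had 1 of 10 tested members higher and 3 lower, together 40% (median -0.21). Klf15 (-1.45 ± 0.15, adjusted p = 1.33e-05) and Cebpb (-1.66 ± 0.20, adjusted p = 4.59e-05), 2 transcription factors that activate gluconeogenic genes, fell, and the coactivator Ppargc1a rose (1.18 ± 0.19, adjusted p = 3.24e-04).

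Glycolysis had 11 of 20 tested members higher and 2 lower, together 65%, in ob/ob mice on ND (median 0.39). Hk2, a hexokinase that is low in normal liver, had the largest log2 fold change of the 3 named from this list (4.55 ± 0.25, adjusted p = 2.30e-07), with Gapdh higher too (0.87 ± 0.10, adjusted p = 2.85e-05) and Pfkfb3 lower (-2.43 ± 0.26, adjusted p = 1.67e-05). The list of carbohydrate responsive transcription had 3 of 9 tested members higher and 2 lower, together 55.6%: Srebf1, which insulin induces, rose (1.89 ± 0.24, adjusted p = 6.43e-05), and Mlxipl, the glucose-sensing factor known to activate Pklr, fell (-0.66 ± 0.09, adjusted p = 1.11e-04), as did Nr1h3 (-0.50 ± 0.09, adjusted p = 7.78e-04). Pklr and Mlxipl therefore moved in opposite directions in these livers.

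The genes that relay the insulin signal had 7 of 27 tested members higher and 3 lower, together 37.04% (median 0.09), among them the kinase subunit Pik3cb (0.81 ± 0.11, adjusted p = 9.29e-05), Gsk3b (0.63 ± 0.09, adjusted p = 1.08e-04) and the insulin-responsive glucose transporter Slc2a4 (3.44 ± 0.47, adjusted p = 1.07e-04), a transporter of fat and muscle. The adipocyte sum in these livers, the summed level of the adipocyte list, was 373 to 443 CPM in ob/ob ND and 109.5 to 116 CPM in WT ND. Adipoq and Plin1 made up only a small part of it, and which cells held the rest was not tested. Of the adipocyte list, 4 of 6 tested members were higher in ob/ob livers on ND and 0 lower. Among the list's members, Adipoq stood at 11.8, 2.60 and 0.0713 CPM and Plin1 at 4.33, 0.632 and 0.143 CPM in ob/ob ND livers. In WT ND livers Adipoq stood at 1.04, 0.521 and 0.0950 CPM and Plin1 at 0.691, 0.607 and 0 CPM. On HFD Slc2a4 was higher in ob/ob livers too (2.97 ± 0.44, adjusted p = 7.17e-04), with Adipoq at 0.0746, 0.417 and 0.150 CPM in ob/ob HFD and 0.0733, 0 and 0.193 CPM in WT HFD livers. The adipocyte sum on HFD was 322 to 361 CPM in ob/ob and 220 to 248 CPM in WT livers. On that diet 2 of 6 tested adipocyte members were higher and 2 lower. The part of adipocyte transcripts in the Slc2a4 results was not tested. The genes that restrain the signal had 3 of 14 tested members higher and 2 lower, together 35.7% (median -0.02). The phosphatase Ptpn1 (0.38 ± 0.09, adjusted p = 0.00629) and the adaptor Grb10 (1.20 ± 0.31, adjusted p = 0.00926) were higher and Trib1 lower (-0.45 ± 0.11, adjusted p = 0.00692). Insulin-like growth factors and their binding proteins had 1 of 8 tested members higher and 2 lower, together 37.5%. Igfbp2, another binding protein made by liver, fell (-4.76 ± 0.52, adjusted p = 1.95e-05), Igfals fell (-0.79 ± 0.23, adjusted p = 0.0177) and Igfbp3 rose (1.47 ± 0.18, adjusted p = 4.56e-05). The Igfals call was lost without ob/ob ND mouse 2 (-0.71), ob/ob ND mouse 3 (-0.71), WT ND mouse 1 (-0.71) or WT ND mouse 3 (-0.72). The shares of the relay, brake and growth factor lists that differed were close to the 36.4% over all genes.

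On HFD the lists gave these counts between ob/ob and WT livers, where 18.5% of all genes tested differed. Gluconeogenic enzymes had 4 of 11 tested members higher and 0 lower, together 36.4%, with Got1 (1.90 ± 0.20, adjusted p = 9.21e-05), Gpt2 (0.70 ± 0.08, adjusted p = 1.76e-04) and Sds, serine dehydratase (0.97 ± 0.23, adjusted p = 0.0104), higher. Their regulators had 2 of 10 tested members higher and 1 lower, together 30%, with Crtc2 (0.54 ± 0.13) and Ppargc1a (0.72 ± 0.18) higher and Klf15 lower (-0.48 ± 0.15). In a fit of the 2 HFD groups alone Crtc2 (0.54, adjusted p = 0.0511) and Klf15 (-0.48, adjusted p = 0.0813) lost their calls. Ppargc1a lost it without ob/ob HFD mouse 2 (0.62) or WT HFD mouse 3 (0.60), and Klf15 without ob/ob HFD mouse 2 (-0.44), ob/ob HFD mouse 3 (-0.35), WT HFD mouse 1 (-0.51), WT HFD mouse 2 (-0.45), WT HFD mouse 3 (-0.48) or WT ND mouse 1 (-0.48). Glycolysis had 4 of 20 tested members higher and 2 lower, together 30%, relay genes 4 of 27 tested members higher and 2 lower, together 22.2%, brakes 2 of 14 tested members higher and 1 lower, together 21.4%, carbohydrate responsive transcription 1 of 9 tested members higher and 2 lower, together 33.3%, and insulin-like growth factors and binding proteins 0 of 8 tested members higher and 1 lower, together 12.5%. Srebf1 was higher in ob/ob livers (1.17 ± 0.24, adjusted p = 0.00466) and Mlxipl lower (-0.58 ± 0.09, adjusted p = 0.00103). The relay and brake shares were close to that over all genes, and the growth factor share was below it.

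Where HFD changed 21.8% of all genes tested in WT livers, it gave gluconeogenic enzymes 3 of 11 tested members higher and 2 lower, together 45.5%, their regulators 0 of 10 tested members higher and 2 lower, together 20%, and glycolysis 5 of 20 tested members higher and 0 lower, together 25%. Hk2 rose (3.05 ± 0.28, adjusted p = 2.89e-05). Tat fell (-1.01 ± 0.27, adjusted p = 0.0170), Hnf4a, a factor of hepatocyte identity, fell (-0.47 ± 0.10, adjusted p = 0.00608), and Txnip, which glucose induces, fell (-1.65 ± 0.31, adjusted p = 0.00270). The Tat call was lost without WT HFD mouse 1 (-0.85) or WT ND mouse 2 (-0.75). Relay genes had 4 of 27 tested members higher and 0 lower, together 14.8%, and brakes 1 of 14 tested members higher and 3 lower, together 28.6%. The relay share was below that over all genes. In ob/ob livers, where 0.913% of all genes tested changed, HFD gave glycolysis 0 of 20 tested members higher and 2 lower, together 10%, and relay genes 1 of 27 tested members higher and 0 lower, together 3.70%.

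Over the 12 livers, the genes closest in pattern to each of the 9 were found by Pearson correlation of log2 CPM among 10456 genes. The 12 points fall into 4 groups and share their libraries, so these values only describe likeness. Igfbp1 was closest to Dusp1 (r = 0.962) and Unc13b (r = 0.948), G6pc to Gadd45b (r = 0.961) and Uhrf2 (r = 0.958), and Pck1 to Atp2c1 (r = 0.952) and Ywhaq (r = 0.947). Fbp1 was closest to Elovl5 (r = 0.964) and Pklr to Ugt1a9 (r = 0.979) and Aplp2 (r = 0.970), and Fbp1 and Pklr had r = 0.962 with each other. Pklr and Fbp1, both highest in ob/ob ND livers, were thus closer to each other than Pck1 was to G6pc. The nearest genes were Hexim1 (r = 0.927) and Zrsr1 (r = 0.901) for Irs1, Tob1 (r = 0.904) and Wdr20 (r = 0.873) for Irs2, Stim1 (r = 0.939) and Btbd2 (r = 0.914) for Insr and Hdgfl2 (r = 0.888) and Slc8b1 (r = 0.831) for Foxo1. Igfbp1 had r = 0.774 with Pck1 and 0.789 with G6pc, and Pck1 and G6pc had 0.673.

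Fasting glucose was lower in ob/ob than in WT mice when the genotypes were compared within diet. In the unit of the table, which is not named, the values were 110, 118 and 117 in ob/ob HFD mice, 160, 181 and 173 in ob/ob ND mice, 239, 259 and 188 in WT HFD mice and 168, 197 and 180 in WT ND mice. The ob/ob HFD mice were the lowest and did not overlap any other group, and the WT HFD group held the 2 highest values. The mean difference within diet was -62 (exact two-sided permutation p = 0.025, adjusted p = 0.0409 over 18 measures), and the smallest p this design allows is 0.005. The adjusted p no longer met 0.05 without mouse 1 of ob/ob HFD (fasting glucose difference -60.8), mouse 3 of ob/ob HFD (-62.5), mouse 1 of ob/ob ND (-59.2) or mouse 2 of WT ND (-58.2).

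For 3 mice against 3 the smallest exact p is 0.1, so single diets and genotypes are given as values. The ob/ob minus WT difference was -114 on HFD (exact p = 0.1), with no overlap, and -10.3 on ND (exact p = 0.5), with overlap. HFD mice differed from ND mice by -56.3 in ob/ob mice (exact p = 0.1) and by 47 in WT mice (exact p = 0.2). Glucose in the separate blood work, in mg/dL, was 267, 378 and 412 in ob/ob HFD, 290, 253 and 384 in ob/ob ND, 284, 412 and 364 in WT HFD and 343, 320 and 306 in WT ND mice, and the groups overlapped (-7.5 for ob/ob minus WT within diet, exact two-sided permutation p = 0.825). Set beside the liver, the ob/ob HFD mice with the lowest fasting glucose had G6pc at 99.8, 248 and 132 CPM, and the WT HFD mice, at 239, 259 and 188, had 258, 297 and 338 CPM. The WT ND mice, with the highest G6pc (740.3, 748 and 1278 CPM), had fasting glucose of 168, 197 and 180. With 4 groups of 3 mice no correlation was computed.

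**Figure D3:**
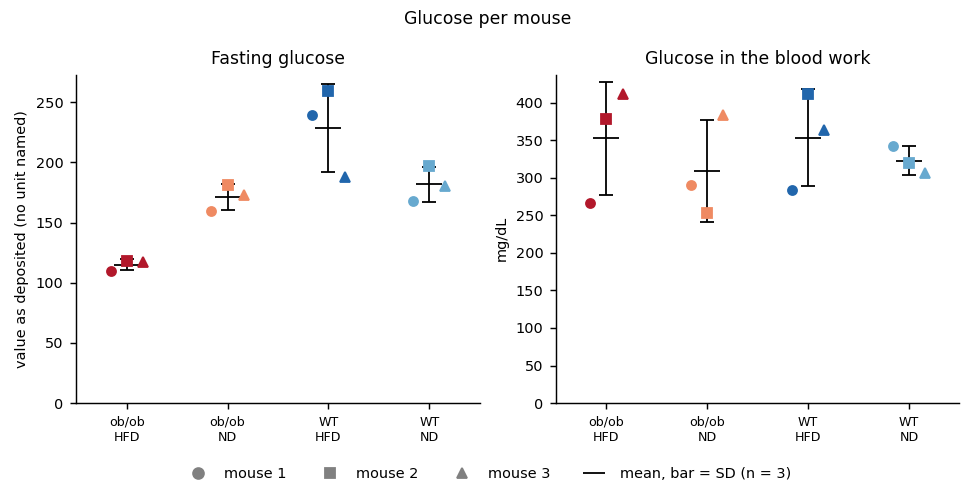
Fasting glucose (left, unit not named) and glucose in the blood work (right, mg/dL) on the y axis by group, with 1 point per mouse, the mean and the SD over 3 mice. The 3 ob/ob HFD mice have fasting values of 110 to 118, below every other mouse, and the blood work values overlap.

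In epididymal fat the WT ND mice stood apart from all other groups. G6pc and Igfbp1 had too few counts there to be tested, so 7 of the 9 genes were. On ND 5 of these 7 were lower in ob/ob than in WT fat and none higher, where 48.2% of the 15676 genes tested differed. Pck1 had 248, 230.2 and 162 CPM in ob/ob HFD, 166, 266 and 284 CPM in ob/ob ND, 63.9, 136 and 327 CPM in WT HFD and 4051, 4243 and 3259 CPM in WT ND fat. The lowest WT ND library stood far above the highest of the other 9, mouse 3 of WT HFD. On ND the ob/ob level was 0.0620 of the WT level (-4.01 ± 0.51, adjusted p = 1.03e-04).

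The insulin receptor and both docking proteins were lower as well. Irs1 had 5.76, 4.98 and 6.46 CPM in ob/ob HFD, 6.46, 9.12 and 6.46 CPM in ob/ob ND, 3.83, 5.58 and 7.62 CPM in WT HFD and 26.9, 18.7 and 22.9 CPM in WT ND fat (-1.63 ± 0.24, adjusted p = 2.61e-04 for ob/ob against WT on ND). Irs2 had 38.3, 65.1 and 55.6, then 39.9, 34.2 and 55.7, 35.8, 41.7 and 51.6 and 118, 155 and 146 CPM in the same order of groups (-1.69 ± 0.23, adjusted p = 1.48e-04). Insr had 91.7, 91.6 and 100.1, then 83.03, 91.8 and 99.5, 61.5, 71.7 and 78.5 and 179, 175 and 153 CPM (-0.89 ± 0.11, adjusted p = 8.09e-05). For all 3 genes the WT ND libraries lay above the other 9. Foxo1 had 92.0, 69.1 and 71.5 CPM in ob/ob HFD, 58.6, 79.4 and 89.1 CPM in ob/ob ND, 25.6, 34.005 and 55.2 CPM in WT HFD and 125, 127 and 99.2 CPM in WT ND fat, and it missed the threshold on ND (-0.63 ± 0.25, adjusted p = 0.0561). Foxo1 passed with DESeq2 (-0.63, adjusted p = 0.0344), in a fit of the 2 ND groups alone, and without WT HFD mouse 1 (-0.63) or WT HFD mouse 3 (-0.62).

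Fbp1 was called lower in ob/ob fat on ND (-2.75 ± 0.99, adjusted p = 0.0389), on few counts and with overlapping groups. Its levels were 1.98, 4.19 and 0.923 CPM in ob/ob HFD, 1.85, 1.45 and 0.300 CPM in ob/ob ND, 0.230, 0.358 and 0.0719 CPM in WT HFD and 5.03, 18.7 and 0.659 CPM in WT ND fat. The highest library, mouse 2 of WT ND, is the one with 1394 CPM of Alb, and it also had the highest G6pc (14.98 CPM), Igfbp1 (4.97 CPM) and Pklr (2.77 CPM). Per 1000 CPM of Alb it held 13.4 CPM of Fbp1, 10.7 of G6pc, 3.56 of Igfbp1 and 1.99 of Pklr. The WT ND livers held 11.6 to 13.4 of Fbp1, 8.44 to 13.8 of G6pc, 2.10 to 3.27 of Igfbp1 and 1.68 to 2.37 of Pklr on that scale. The ratios of G6pc and Pklr to Alb in this fat library thus lay within the range of WT ND livers, and those of Fbp1 and Igfbp1 just above it. The Fbp1 call was lost without ob/ob HFD mouse 1 (-2.74), ob/ob ND mouse 1 (-3.18), ob/ob ND mouse 2 (-2.90), ob/ob ND mouse 3 (-2.30), WT HFD mouse 2 (-2.75) or WT ND mouse 2 (-1.23), and in a fit of the 2 ND groups alone (-2.73, adjusted p = 0.0802). Pklr, at 0.165, 1.19 and 0 CPM in ob/ob HFD, 0.461, 0.138 and 0 CPM in ob/ob ND, 0, 0.143 and 0 CPM in WT HFD and 1.44, 2.77 and 0 CPM in WT ND fat, overlapped between the genotypes on ND (-2.76 ± 1.40, adjusted p = 0.125) and passed without WT ND mouse 3 (-3.35).

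By the test all 7 tested genes were lower on HFD in WT fat, Fbp1 and Pklr on few counts, where 58.9% of all genes tested changed. Pck1 fell to 0.0456 of its ND level (-4.45 ± 0.52, adjusted p = 3.94e-05), Irs1 to 0.249 (-2.005 ± 0.24, adjusted p = 5.11e-05), Irs2 to 0.309 (-1.70 ± 0.23, adjusted p = 9.48e-05), Insr to 0.417 (-1.26 ± 0.11, adjusted p = 5.53e-06) and Foxo1 to 0.327 (-1.61 ± 0.26, adjusted p = 2.95e-04). None of these 5 overlapped between the diets. Fbp1 (-5.15 ± 1.21, adjusted p = 0.00364) and Pklr (-4.59 ± 1.72, adjusted p = 0.0386) fell as well, and so did 8 of 8 hepatocyte transcripts in the same comparison, whose part was not tested. Pklr had 2 counts in WT HFD and 52 in WT ND fat, summed over 3 mice, and overlapped between the diets. It passed the filter on low counts only through mice 1 and 2 of WT ND and mouse 2 of ob/ob HFD. Its test in WT fat thus leans on the group where it was high. Its highest library was mouse 2 of WT ND, the one with 1394 CPM of Alb. Without mouse 2 of WT ND, Fbp1 still passed at a smaller log2 fold change (-3.63), and Pklr did not. Pklr lost its call without WT HFD mouse 1 (-4.11), WT HFD mouse 2 (-7.21), WT HFD mouse 3 (-4.05), WT ND mouse 1 (-4.56) or WT ND mouse 2 (-3.62).

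In ob/ob fat diet changed none of the 7 genes, as 0% of all genes tested changed, with 0 at an unadjusted p under 0.05 and 0 by DESeq2. The diet effect differed between the genotypes for 6 of the 7, where 40.1% of all genes tested passed that test. The diet effect in ob/ob minus that in WT fat was 4.29 ± 0.67, adjusted p = 6.70e-04 for Pck1, 1.99 ± 0.32, adjusted p = 7.76e-04 for Irs2, 1.31 ± 0.15, adjusted p = 1.25e-04 for Insr, 1.65 ± 0.35, adjusted p = 0.00345 for Irs1, 1.65 ± 0.36, adjusted p = 0.00407 for Foxo1 and 6.11 ± 1.58, adjusted p = 0.0103 for Fbp1. The Fbp1 value was 4.60, adjusted p = 0.0238 without mouse 2 of WT ND and 5.41, adjusted p = 0.0265 without mouse 2 of ob/ob HFD. For 7 of 8 hepatocyte transcripts the diet effect also differed in this direction, and their part was not tested. Pklr missed the threshold (5.72 ± 2.37, adjusted p = 0.0751) and passed with the mouse number as a block (5.52, adjusted p = 0.0342) and without WT ND mouse 3 (6.31).

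On HFD ob/ob fat held more Insr (0.42 ± 0.11, adjusted p = 0.0259) and Foxo1 (1.02 ± 0.25, adjusted p = 0.0231) than WT fat, 2 of 7 genes where 17.6% of all genes tested differed. The groups did not overlap for either gene, but neither met the threshold in a fit of the 2 HFD groups alone (0.42, adjusted p = 0.0563 for Insr and 1.02, adjusted p = 0.0581 for Foxo1). Insr lost its call without ob/ob HFD mouse 1 (0.43), ob/ob HFD mouse 3 (0.37), WT HFD mouse 1 (0.33) or WT HFD mouse 2 (0.43), and Foxo1 without ob/ob HFD mouse 1 (0.87), ob/ob HFD mouse 3 (1.06), WT HFD mouse 1 (0.80) or WT HFD mouse 2 (0.94). Pck1, Irs1 and Irs2 overlapped between the genotypes on HFD. Fbp1 did not overlap and missed the threshold (3.36 ± 1.23, adjusted p = 0.0817). It passed with DESeq2 (3.40, adjusted p = 0.0105), with the block, in a fit of the 2 HFD groups alone, and without WT ND mouse 2 (3.37) or WT ND mouse 3 (3.36), with Alb at 81.996, 154 and 4.54 CPM in ob/ob HFD and 7.74, 28.5 and 6.11 CPM in WT HFD fat.

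Transcripts of 2 cell types of the depot moved with these results. The summed level of 7 adipocyte transcripts was 14423 to 18603 CPM in ob/ob HFD, 12768 to 17886 CPM in ob/ob ND, 3928 to 11366 CPM in WT HFD and 34547 to 44531 CPM in WT ND fat, and none was at 0. That of 7 macrophage transcripts was 11475 to 16531 CPM in ob/ob HFD, 8137 to 15426 CPM in ob/ob ND, 13348 to 23761 CPM in WT HFD and 1658 to 1779 CPM in WT ND fat. WT ND fat was thus the richest in adipocyte and the poorest in macrophage transcripts. Of these lists, 6 of 7 adipocyte transcripts were lower and 7 of 7 macrophage transcripts higher in ob/ob than in WT fat on ND, and their part in the results was not tested. As a scale chosen after seeing the data, Pck1 was set against Plin1, the lipid droplet coat protein of adipocytes. The ratio of Pck1 to Plin1 CPM was 0.219, 0.306 and 0.1796 in ob/ob HFD, 0.220, 0.300 and 0.241 in ob/ob ND, 0.320, 0.473 and 0.550 in WT HFD and 1.76, 1.92 and 1.88 in WT ND fat. Pck1 and Plin1 therefore changed unequally, with Pck1 lower relative to Plin1 in all 9 libraries outside WT ND.

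**Figure D4:**
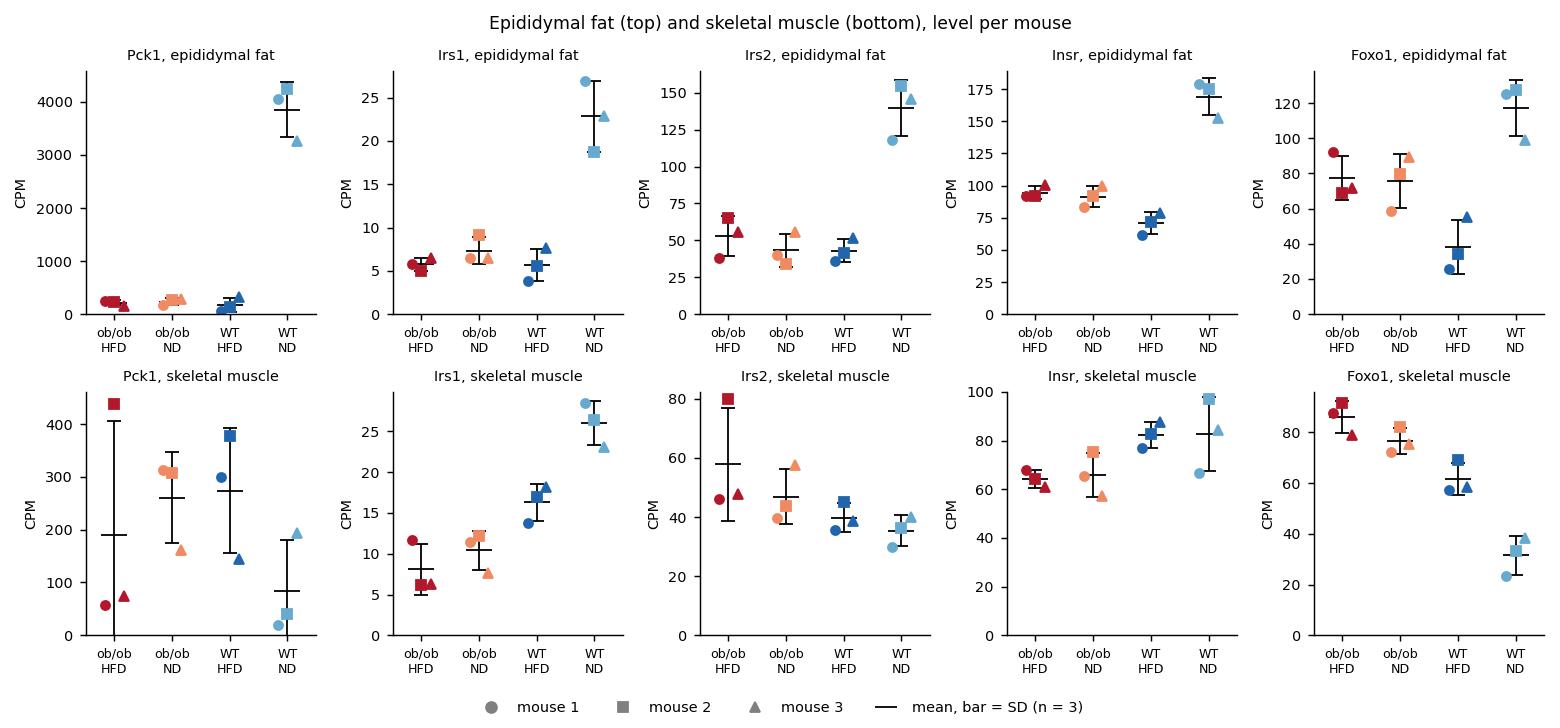
CPM (y axis, from 0) of Pck1, Irs1, Irs2, Insr and Foxo1 in epididymal fat (top row) and skeletal muscle (bottom row) by group, with 1 point per mouse, the mean and the SD over 3 mice. In fat the WT ND mice lie above the other groups for all 5 genes, and in muscle Irs1 is highest and Foxo1 lowest in WT ND mice.

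The other genes of these pathways in fat moved in both directions in ob/ob mice on ND, where 48.2% of all genes tested differed. The gluconeogenic enzymes had 1 of 11 tested members higher and 7 lower, together 72.7% (median -0.48 against -0.01 for all genes) and their regulators 0 of 10 tested members higher and 3 lower, together 30%, with the glucagon receptor Gcgr (-3.53 ± 0.69, adjusted p = 0.00165) and Klf15 (-1.37 ± 0.35, adjusted p = 0.00729) among those that fell. Glycolysis had 10 of 18 tested members higher and 4 lower, together 77.8% (median 0.40), led by the pyruvate kinase of non-liver cells, Pkm (1.46 ± 0.27, adjusted p = 0.00128). Relay genes had 7 of 28 tested members higher and 7 lower, together 50%, with Akt2, the Akt form of insulin-stimulated glucose uptake, lower (-1.13 ± 0.14, adjusted p = 8.36e-05), Eif4ebp1 lower (-1.87 ± 0.10, adjusted p = 4.73e-07) and the adaptor Grb2 higher (1.08 ± 0.11, adjusted p = 2.69e-05). Brakes had 3 of 16 tested members higher and 3 lower, together 37.5%, with Dok1 (1.39 ± 0.13, adjusted p = 1.41e-05) and Prkcd (1.68 ± 0.21, adjusted p = 8.81e-05) higher. Both are also transcripts of blood cells, and macrophage transcripts moved the same way in these libraries, whose part was not tested. The relay share was close to that over all genes, and the shares of regulators and brakes were below it.

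Where HFD changed 58.9% of all genes tested in WT fat, it gave gluconeogenic enzymes 1 of 11 tested members higher and 8 lower, together 81.8% (median -0.58 against -0.04 for all genes), relay genes 10 of 28 tested members higher and 12 lower, together 78.6%, brakes 4 of 16 tested members higher and 4 lower, together 50%, glycolysis 7 of 18 tested members higher and 8 lower, together 83.3%, and carbohydrate responsive transcription 2 of 8 tested members higher and 5 lower, together 87.5%. Klf15 fell (-3.27 ± 0.38, adjusted p = 3.86e-05), Srebf1 fell (-1.22 ± 0.17, adjusted p = 1.15e-04) and Ptpn1 rose (2.25 ± 0.34, adjusted p = 2.30e-04). The share of brakes was below that over all genes, and the others given here were above it. On HFD the ob/ob fat had more Slc2a4 (1.74 ± 0.34, adjusted p = 0.0111), Pik3r1 (0.88 ± 0.19, adjusted p = 0.0139), Klf15 (1.71 ± 0.37, adjusted p = 0.0148) and Srebf1 (0.85 ± 0.17, adjusted p = 0.0107) than WT fat. Without mouse 1 of ob/ob HFD all 4 lost their call (Slc2a4 1.55, adjusted p = 0.0549; Pik3r1 0.76, adjusted p = 0.0665; Klf15 1.45, adjusted p = 0.0691; Srebf1 0.72, adjusted p = 0.0557), and without mouse 2 of WT HFD Pik3r1 (0.85, adjusted p = 0.0542) and Klf15 (1.71, adjusted p = 0.0551) did. In this comparison 5 of 7 adipocyte transcripts were higher in ob/ob fat, and their part was not tested.

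In skeletal muscle G6pc, Fbp1, Pklr and Igfbp1 had too few counts to be tested, and 5 genes were. On ND 2 of these 5 differed between ob/ob and WT mice, where 45% of the 15452 genes tested did. Irs1 had 11.7, 6.23 and 6.32 CPM in ob/ob HFD, 11.4, 12.1 and 7.69 CPM in ob/ob ND, 13.8, 17.003 and 18.2 CPM in WT HFD and 28.5, 26.4 and 23.1 CPM in WT ND muscle, and was lower in ob/ob mice on ND (-1.32 ± 0.26, adjusted p = 0.00465). Foxo1 had 87.6, 91.7 and 78.95 CPM in ob/ob HFD, 72.3, 82.2 and 75.4 CPM in ob/ob ND, 57.4, 69.1 and 58.4 CPM in WT HFD and 23.2, 33.1 and 38.3 CPM in WT ND muscle, and was higher in ob/ob mice on ND (1.28 ± 0.19, adjusted p = 0.00326). For both genes the ND groups did not overlap, and both calls held under every alternative and with each mouse left out. Irs2 had 45.96, 79.9 and 47.7 CPM in ob/ob HFD, 39.6, 43.7 and 57.5 CPM in ob/ob ND, 35.6, 45.1 and 38.8 CPM in WT HFD and 29.8, 36.2 and 40.2 CPM in WT ND muscle, with overlap on ND (0.41 ± 0.24, adjusted p = 0.168). Insr had 67.8, 64.03 and 60.8 CPM in ob/ob HFD, 65.2, 75.3 and 57.2 CPM in ob/ob ND, 76.8, 82.7 and 87.5 CPM in WT HFD and 66.6, 97.1 and 84.2 CPM in WT ND muscle, again with overlap on ND (-0.33 ± 0.17, adjusted p = 0.138). Foxo1 was thus higher in ob/ob than in WT muscle on ND, where in fat its ND levels stood lower in ob/ob mice without passing the test.

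On HFD none of the 5 genes differed in muscle, where 0.0194% of all genes tested (3 genes) did. At an unadjusted p under 0.05 there were 3, and DESeq2 called 1, Irs1 (-0.99, adjusted p = 0.0303). By edgeR Irs1 had -1.02 ± 0.27, adjusted p = 0.154, with no overlap of the groups, and it passed without ob/ob HFD mouse 1 (-1.38). Within ob/ob HFD muscle the myofibre sum ran from 4719.7 to 111291 CPM and the adipocyte sum from 3792 to 22195 CPM. The part of this spread in the small share of genes called was not tested. HFD changed none of the 5 genes in WT muscle, where 0% of all genes tested changed, with 2 at an unadjusted p under 0.05 and 1 by DESeq2, Foxo1 (0.93, adjusted p = 3.51e-04). Every WT HFD muscle had more Foxo1 than any WT ND muscle (0.97 ± 0.19, adjusted p = 0.101 by edgeR), and it passed in a fit of the 2 WT groups alone (0.96, adjusted p = 0.0268) and without ob/ob HFD mouse 1 (0.97). In ob/ob muscle diet changed none of the 5, as 0% of all genes tested changed, with 0 at an unadjusted p under 0.05 and 0 by DESeq2. The interaction was likewise passed by none of the 5 and by 0% of all genes tested, with 1 at an unadjusted p under 0.05 and 0 by DESeq2.

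Pck1 in muscle is given beside Plin1, since the libraries differed in adipocyte transcript. It stood at 57.8, 438 and 75.01 CPM in ob/ob HFD, 314, 308 and 161 CPM in ob/ob ND, 300.2, 378 and 145 CPM in WT HFD and 19.4, 40.7 and 194 CPM in WT ND muscle (1.62 ± 0.90, adjusted p = 0.154 for ob/ob against WT on ND, and past the threshold without WT ND mouse 3 (3.12)). Plin1 had 185, 1052 and 653, then 809, 648 and 913, 417, 504 and 241 and 10.6, 35.6 and 141 CPM in the same order of groups. The ratio of Pck1 to Plin1 was 0.313, 0.417 and 0.115 in ob/ob HFD, 0.388, 0.475 and 0.176 in ob/ob ND, 0.719, 0.750 and 0.600 in WT HFD and 1.84, 1.14 and 1.37 in WT ND muscle. As in epididymal fat, WT ND was highest, WT HFD next and both ob/ob groups lowest. While the Pck1 level in muscle overlapped between the groups, its ratio to Plin1 did not overlap between WT ND, WT HFD and the ob/ob mice.

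The aorta libraries also held adipocyte transcript, with an adipocyte sum of 17305 to 21211 CPM in ob/ob ND and 20621 to 30081 CPM in WT ND mice. Unlike epididymal fat (9.52 to 20.5 CPM in WT ND mice), they were rich in brown adipocyte transcripts. That sum was 7180 to 9365 CPM in ob/ob HFD, 5612 to 8964 in ob/ob ND, 12185 to 14646 in WT HFD and 12228 to 16037 in WT ND aortas. Its part in the Pck1 values was not tested. Pck1 had 2064, 2363 and 1885 CPM in ob/ob HFD, 2097, 1691 and 1937 CPM in ob/ob ND, 2664, 2241 and 2987 CPM in WT HFD and 3598, 1776 and 2977 CPM in WT ND aortas, and its ratio to Plin1 was 1.94, 2.08 and 1.82, then 1.999, 1.67 and 1.70, 2.46, 2.01 and 2.15 and 3.13, 3.23 and 3.54. The 3 WT ND aortas were above the other 9 in the ratio, and the other groups lay close together. These ratios are descriptions within each library and were not tested.

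**Figure D5:**
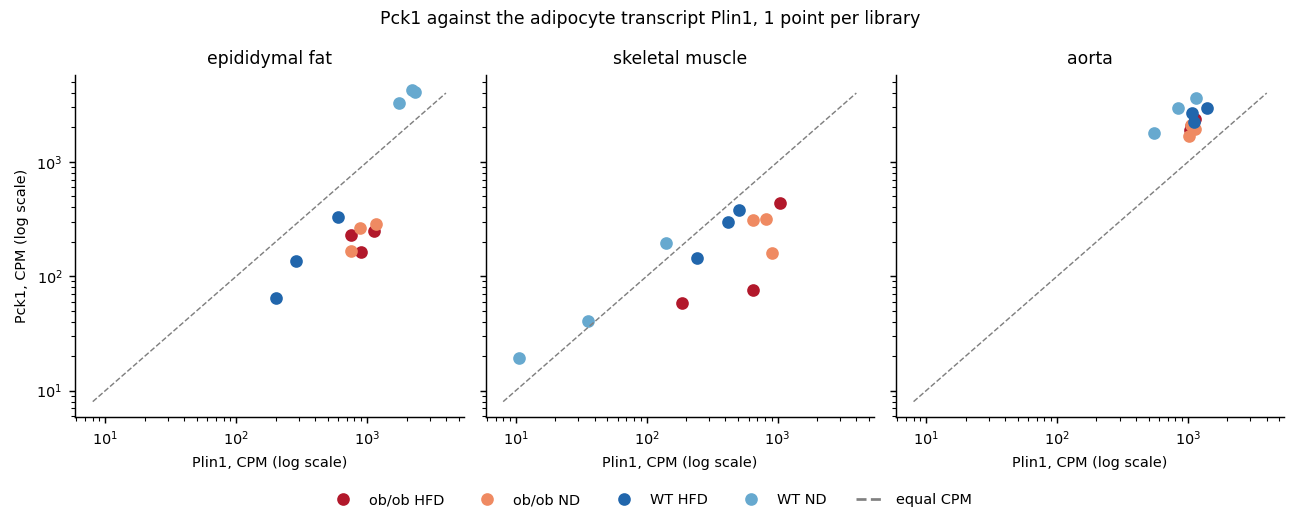
Pck1 CPM (y axis, log scale) against Plin1 CPM (x axis, log scale) in 12 libraries each of epididymal fat, skeletal muscle and aorta, coloured by group, with a dashed line where both are equal. In fat and muscle the WT ND libraries lie above the line and all other libraries below it, and in aorta all libraries lie above it with WT ND farthest.

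The muscle libraries differed in their makeup. The summed level of myofibre transcripts was 4719.7 to 111291 CPM in ob/ob HFD, 25863 to 56863 CPM in ob/ob ND, 90581 to 104802 CPM in WT HFD and 109656 to 220716 CPM in WT ND muscle, with none of the 8 at 0. The adipocyte sum was 3792 to 22195, then 11615 to 15241, 5899 to 9529 and 678 to 2972 CPM in the same order. On ND 6 of 7 adipocyte and 7 of 7 macrophage transcripts were higher in ob/ob muscle, and 0 of 8 myofibre transcripts passed the test by edgeR. The part of these shifts in the Irs1 and Foxo1 results was not tested. Mouse 1 of WT ND had 142 CPM of Alb in muscle, and per 1000 CPM of Alb 11.6 CPM of Fbp1, 9.31 of G6pc, 4.07 of Igfbp1 on 7 counts and 1.16 of Pklr on 2 counts. Beside the WT ND liver ranges given for fat, that of G6pc lay inside, that of Fbp1 at the lower end, that of Igfbp1 above and that of Pklr below.

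The other genes of these pathways in muscle on ND moved in both directions in ob/ob mice, where 45% of all genes tested differed. Brakes of the insulin signal had 7 of 16 tested members higher and 2 lower, together 56.2% (median 0.66 against 0.00 for all genes), including Trib3, which inhibits Akt (2.83 ± 0.49, adjusted p = 0.00334), and Prkce (1.43 ± 0.22, adjusted p = 0.00326). Relay genes had 6 of 28 tested members higher and 2 lower, together 28.6%, with Pik3r1, the regulatory subunit of phosphatidylinositol 3-kinase (2.17 ± 0.19, adjusted p = 0.00237), and Akt1 (0.74 ± 0.13, adjusted p = 0.00342) higher. Insulin-like growth factors and binding proteins had 5 of 9 tested members higher and 0 lower, together 55.6%, with Igf1 (1.94 ± 0.33, adjusted p = 0.00332) and Igfbp3 (2.41 ± 0.36, adjusted p = 0.00326) higher. Glycolysis had 5 of 18 tested members higher and 7 lower, together 66.7% (median -1.16), and Ppargc1a, the coactivator of oxidative metabolism in muscle, fell (-2.14 ± 0.62, adjusted p = 0.0191), a call lost without ob/ob ND mouse 1 (-2.22), ob/ob ND mouse 3 (-1.81) or WT ND mouse 2 (-1.75). The share of relay genes that differed was below that over all genes. In this comparison the myofibre sum was lower in ob/ob muscle and the adipocyte sum higher, as given above, and their part in these list results was not tested.

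Over the 7 tissues, 4 of the genes were largely liver transcripts and the signalling genes were found throughout. Per kb of exon, so that genes can be compared, the median level over the 12 livers was 686 CPM for Fbp1, 583 for Pck1, 112 for G6pc, 73.6 for Pklr and 37.96 for Igfbp1, and 9.12 for Insr, 5.49 for Foxo1, 1.92 for Irs2 and 1.19 for Irs1. In WT ND livers alone Pck1 (1149 ± 136 CPM per kb) stood above Fbp1 (647 ± 54.4), as mean ± SD over 3 mice. G6pc, Fbp1, Pklr and Igfbp1 had at most 1.10 CPM in aorta, heart, hippocampus and hypothalamus. Pck1 reached liver levels in the aorta libraries (1691 to 3598 CPM over 12 libraries, 1148 to 4425 CPM in liver), which held the white and brown adipocyte transcripts given above. It had 0 to 4.86 CPM in heart and at most 0.156 CPM in the brain regions.

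The order of the tissues differed between the groups, so it is given for WT ND mice in CPM per kb, as mean ± SD over 3 mice. TMM was applied within each tissue, so levels of different tissues, also those of Pck1 in aorta and liver, were not scaled to each other. In WT ND mouse 1 the 10 genes with most counts took 33.8% of all counts in heart, 26.1% in aorta and 6.24% in hypothalamus. The part of such differences in the order of the tissues was not tested. Irs2 was highest in epididymal fat (22.1 ± 3.02), followed by hypothalamus (15.5 ± 1.19) and hippocampus (14.5 ± 1.41), which overlapped each other and lay below all 3 fat libraries. Aorta (7.77 ± 6.64), muscle (5.59 ± 0.828), liver (4.15 ± 2.01) and heart (1.40 ± 0.0569) came after. In the other 3 groups the Irs2 mean was highest in hypothalamus, where it was 15.8 ± 0.329 in ob/ob ND mice against 6.84 ± 1.76 in their fat.

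Insr in WT ND mice ran from 3.59 ± 0.232 CPM per kb in hippocampus to 10.3 ± 1.06 in liver and 12.3 ± 1.03 in fat, and in the other 3 groups its mean was highest in liver. Irs1 was highest in muscle (2.84 ± 0.295) and fat (2.50 ± 0.447), which overlapped, and lowest in heart (0.969 ± 0.117) and aorta (0.898 ± 0.348). In both ob/ob groups the Irs1 mean was highest in hypothalamus, at 1.74 ± 0.255 on ND. Foxo1 was highest in fat (13.5 ± 1.81), followed by aorta (8.11 ± 1.03), and lowest in heart (1.96 ± 0.0820). Muscle, with 3.64 ± 0.881 in WT ND mice, had the highest Foxo1 mean in the other 3 groups. Irs2 exceeded Irs1 per kb in median in all 7 tissues.

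Outside liver, fat and muscle, 2 genotype differences of these genes passed the test, both in heart. There, Insr was lower in ob/ob mice on ND, at 58.6, 65.7 and 55.7 CPM against 75.9, 82.2 and 82.8 CPM in WT mice, with no overlap (-0.42 ± 0.10, adjusted p = 0.0122), where 12.7% of all genes tested differed. On HFD Insr had 72.1, 86.7 and 85.996 CPM in ob/ob hearts and 71.4, 81.4 and 65.1 CPM in WT hearts, which overlapped. Pck1 was called lower in ob/ob hearts on HFD, at 0.171, 0.344 and 0.0901 CPM against 4.86, 0.875 and 0.282 CPM in WT hearts (-3.25 ± 1.04, adjusted p = 0.0404), where 17.2% of all genes tested differed. The groups overlapped, the library with 4.86 CPM of Pck1 also had the highest Adipoq of the 12 hearts (4.44 CPM), and the call was lost with DESeq2 (-3.30, adjusted p = 0.0764) and without ob/ob HFD mouse 1 (-3.14), ob/ob HFD mouse 2 (-3.84), ob/ob HFD mouse 3 (-2.93), ob/ob ND mouse 1 (-3.25) or WT HFD mouse 1 (-1.51). None of the genes differed in aorta, where genotype changed 31.7% of genes on ND and 16.2% on HFD, in hippocampus (3.48% and 1.56%) or in hypothalamus (5.3% and 2.13%). Irs2 in hippocampus had 75.2, 77.8 and 74.4 CPM in ob/ob ND and 98.6, 95.0 and 81.7 CPM in WT ND mice, with no overlap, without passing the test (-0.28 ± 0.08, adjusted p = 0.0681). A test of diet in WT hearts was added after seeing the data. There Irs1 fell, at 3.85, 4.45 and 3.85 CPM in WT HFD against 8.78, 9.96 and 7.84 CPM in WT ND hearts, with no overlap (-1.12 ± 0.18, adjusted p = 0.0148), where 0.256% of all genes tested changed. The call was lost without WT HFD mouse 1 (-1.08), WT HFD mouse 2 (-1.20) or WT ND mouse 1 (-1.13).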

How the data were processed

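Paired-end RNA sequencing of 84 libraries was analysed from the authors' deposited table of raw fragment counts per gene (counts, not normalized). Per the labels' protocols, libraries were made with a TruSeq RNA kit. Per the submitters' processing notes, the tools were Trimmomatic 0.36, HISAT2 2.0.5 and featureCounts 1.5.0-p2, on GRCm38. Per the file headers the version was 1.5.1, over exons, without strand and without reads of several places, so near-identical copies are undercounted and a gene's reads cannot be told from those of an antisense neighbour. The authors' deposited phenotype tables hold other measured values, 1 per mouse, with no unit named for fasting glucose. In 6 titles HFD is spelled HDF, which the characteristics give as HFD.

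Each tissue was fitted with edgeR 4.0.16 in R 4.3.3: filterByExpr (smallest count 10, smallest total 15), TMM, a mean for each of 4 groups of 3 libraries, the quasi-likelihood test, and Benjamini-Hochberg adjustment over all genes tested of a tissue and contrast (threshold 0.05). In liver, fat and muscle, log2 fold changes are given for the 9 genes where the adjusted p was under 0.2, with the others by level, and a list's called share counts both directions. Phenotypes were tested by exact permutation within diet. The members, the lists and the rule for naming list genes (up to 3 per list with the smallest p past the threshold, in liver, fat and muscle) were chosen with earlier results of these data known. Ratios to Plin1 and Alb, and the single libraries named for their markers, were chosen after their values were seen. The alternatives were a fit by DESeq2 1.42.0, edgeR with DESeq2 size factors, all genes without a filter, a block for the mouse number, a fit of the 2 compared groups, and leaving out each mouse, also for diet in WT hearts, which was added after seeing the data. Replicates differed by more than sampling noise in all 84 pairs (chi-square over its degrees of freedom from 2.73 to 601.8). On simulated data for ob/ob against WT on ND with the real counts' spread, 100 genes per tissue were changed at each fold. The fit recovered 73% of 2-fold and 96% of 4-fold changes in liver (13246 genes), 56% and 77% in fat, and 14% and 76% in muscle. In the real comparison 36.4% of genes were called in liver, 48.2% in fat and 45% in muscle, far more than were changed here. The adjustment over all genes is then less strict, so the recovered shares do not give the reach of the real test. Single values of some list and nearest genes are not reported here.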

Additional observations from a re-analysis of the deposited data

Results flagged for a closer look

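For 8 results the effect of diet differed between the genotypes by the interaction term of edgeR's quasi-likelihood test, given on the log2 scale as the effect in ob/ob less the effect in WT mice. In liver these were Igfbp1 (3.63 ± 0.57, adjusted p = 0.00301) and Pklr (-1.08 ± 0.28, adjusted p = 0.0360). The Igfbp1 mean was 56.4 CPM on HFD and 20.5 CPM on ND in ob/ob livers, and 51.7 CPM on HFD and 232 CPM on ND in WT livers. In epididymal fat they were Fbp1 (6.11 ± 1.58, adjusted p = 0.0103), Pck1 (4.29 ± 0.67, adjusted p = 6.70e-04), Irs2 (1.99 ± 0.32, adjusted p = 7.76e-04), Foxo1 (1.65 ± 0.36, adjusted p = 0.00407), Irs1 (1.65 ± 0.35, adjusted p = 0.00345) and Insr (1.31 ± 0.15, adjusted p = 1.25e-04). For each of these 6 the fall on HFD in WT fat passed the test and no change with diet passed it in ob/ob fat. Without mouse 2 of WT ND, the fat library with 1394 CPM of Alb, the Fbp1 value was 4.60, adjusted p = 0.0238. The adipocyte and macrophage transcripts of the same libraries also had a diet effect that differed between genotypes, 7 of 7 in both lists, as did 7 of 8 hepatocyte transcripts, and their part was not tested.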

How the results depend on the processing

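Of 37 called results of the 9 genes, 29 were called under every alternative: DESeq2, edgeR with DESeq2 size factors, all genes without a filter, a block for the mouse number, the 2 groups alone where that could be fitted, and each mouse left out. The other 8 lost their call with at least 1 mouse left out, and 6 under another setting. No called gene changed direction. Of 141 named results of list genes, 36 lost their call with at least 1 mouse left out and 16 under another setting; those of them named in the report are marked there. Of 63 list counts, 34 moved by more than 1.5 times with a mouse left out and 25 under another setting. The count of the 9 genes called moved by more than 1.5 times as follows. With DESeq2 it was 2 in liver for diet in ob/ob mice (0 by edgeR), 4 for the liver interaction (2), and 1 in muscle both for genotype on HFD (0) and for diet in WT mice (0). Without the filter it was 2 in liver for genotype on HFD, 4 for diet in ob/ob livers, 5 for the liver interaction, 1 for diet in WT muscle, and 4 for genotype in the other 4 tissues (2). In liver this fit gave adjusted p far smaller than the main fit at nearly the same fold changes, so its added liver calls are weak support. The calls this fit added in the other 4 tissues are not taken as support either. With the replicate block it was 1 for genotype on HFD in liver. With only the 2 groups it was 1 in fat for genotype on HFD (2), and 2 for diet in WT muscle. With each mouse left out, it ran from 0 to 1 in liver for genotype on HFD, 0 to 2 for diet in ob/ob livers, 1 to 3 for the liver interaction, 0 to 3 in fat for genotype on HFD, 0 to 2 in muscle for genotype on HFD and for diet in WT mice, and 1 to 4 in the other tissues. The fasting glucose difference ran from -72.2 to -54.4 with each mouse left out. The blood glucose difference ran from -26.2 to 13.8 and changed sign without mouse 1 of ob/ob HFD (13.8), mouse 2 of ob/ob ND (6.5) or mouse 2 of WT HFD (7.17). The cause of these changes was not tested.

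Deviations of same-numbered mice of a tissue correlated over 0.1 in 3 of 18 pairs in liver, 6 of 18 in fat and 4 of 18 in muscle. The median correlation was 0.00311 in liver, 0.0796 in fat and -0.0265 in muscle, against 0.000996, -0.0298 and 0.0165 for mice of other numbers. Whether the number marks a shared effect was not tested. With the replicate block the counts of the 9 genes called were 6 for genotype on ND in liver, 5 in fat and 2 in muscle. With 3 mice per group, the simulation recovered 14% of 2-fold changes in muscle, with far fewer changed genes than were called in the real comparison. Low counts limit Fbp1 and Pklr in fat and Pck1 in heart.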
